A study of Mus musculus with 9 samples.

Results

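The antioxidant and NRF2 target genes are 39 named genes of the NRF2 pathway, of glutathione and thioredoxin metabolism, of superoxide and peroxide removal, and of iron handling. They were found by gene symbol, and each had 1 row among the 22322 genes of the deposited table. They were measured by RNA sequencing in mouse cells sold and labelled as retinal ganglion cells (RGCs), wild type by their labels, with 9 libraries in 3 groups of 3. Normal RGCs grew in complete medium. Aging RGCs were given D-galactose, a sugar used to make cultured cells age. Aging RGCs + USCs medium were given D-galactose too and afterwards grown in USCs medium, the cell-free medium that urine-derived stem cells (USCs) had conditioned. The aging groups are thus a chemical model in culture and not cells from old animals, and the medium was not tested here on cells without D-galactose. The paper grew USCs in a purchased medium for urine stem cells, and RGCs in high glucose medium with serum. No group here had USC medium that was not conditioned, so effects of the conditioning and of the base medium cannot be told apart. The study's methods describe the 3 libraries of a group as replicated wells, so a p-value measures the spread between wells. Library totals ran from 19814236 to 22342283 estimated reads in normal RGCs, from 18189610 to 19556335 in aging RGCs and from 20238813 to 21054300 with the medium.

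NRF2, the product of Nfe2l2, is a transcription factor that KEAP1 holds in the cytoplasm and hands to a ubiquitin ligase for degradation. Oxidants and electrophiles modify KEAP1, NRF2 then builds up, pairs with small MAF proteins in the nucleus and binds antioxidant response elements near genes for glutathione synthesis, quinone reduction, thioredoxin recycling, NADPH supply and iron storage. Much of this control acts on the NRF2 protein, which RNA does not show. Retinal neurons use much oxygen and are exposed to light, and this system is one of their known defences against oxidants.

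The core of the antioxidant response element, TGACNNNGC, was searched on both strands in the RefSeq promoter windows of GRCm38.p6, which run from 250 bases before a gene's start to 50 bases after it. A window was given for 32 members, and 9 of them (28.1%) held the core, namely Nfe2l2, Gclm, Txnrd1, Srxn1, Sod1, Prdx1, Mgst1, G6pdx and Pgd. Of all 27025 gene symbols with a window, 14.0% held it. Counted by window, as some genes have several, 9 of 42 member windows (21.4%) and 12.4% of all 32851 windows held it. Hmox1, Gclc, Gsr, Sod3, Prdx6, Gsta4 and Slc40a1 had no window in the table. The core overlaps the AP-1 motif TGACTCA, and the match of Prdx1 holds both. Of 11 members called at a log2 fold change of 0.5 or more in size, 7 had a window to search (Nqo1, Gpx1, Gpx3, Prdx2, Prdx3, Gstm1 and Tfrc), and 0 of these 7 held the core. Sequence more than 250 bases before a start was not searched, so an element farther out would be missed. The stretches below were chosen after the values were seen, to show the element in the regulator gene, in a subunit gene of glutathione synthesis and in an abundant peroxiredoxin gene, beside Gstm1, a member with large differences whose window holds no match. Each is the part before the start that lies outside annotated exons on the gene's own strand. Exons on the other strand were not checked. The bases are written 5′ to 3′ along the gene's strand, with the core or its reverse complement in capitals.
Nfe2l2, chr2:75704664-75704913, minus strand: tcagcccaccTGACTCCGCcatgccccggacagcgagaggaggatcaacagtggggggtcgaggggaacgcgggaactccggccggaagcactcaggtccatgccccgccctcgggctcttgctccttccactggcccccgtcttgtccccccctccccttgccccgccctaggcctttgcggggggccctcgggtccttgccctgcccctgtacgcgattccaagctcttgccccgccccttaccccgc
Gclm, chr3:122245307-122245556, plus strand: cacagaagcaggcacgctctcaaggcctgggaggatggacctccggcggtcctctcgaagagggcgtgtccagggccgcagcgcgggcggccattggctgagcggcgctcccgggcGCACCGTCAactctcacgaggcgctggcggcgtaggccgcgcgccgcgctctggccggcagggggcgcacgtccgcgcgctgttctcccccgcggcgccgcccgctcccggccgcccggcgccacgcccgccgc
Prdx1, chr4:116685349-116685543, plus strand: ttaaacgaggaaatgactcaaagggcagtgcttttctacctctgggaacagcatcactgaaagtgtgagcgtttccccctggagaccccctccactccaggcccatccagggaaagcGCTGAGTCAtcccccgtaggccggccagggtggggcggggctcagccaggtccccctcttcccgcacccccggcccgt
Gstm1, chr3:108017974-108018223, minus strand: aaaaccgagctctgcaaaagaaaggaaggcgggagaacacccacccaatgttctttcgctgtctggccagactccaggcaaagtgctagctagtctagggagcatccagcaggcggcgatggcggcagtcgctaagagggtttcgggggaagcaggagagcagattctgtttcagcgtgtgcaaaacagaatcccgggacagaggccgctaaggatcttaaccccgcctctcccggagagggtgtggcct
The core began 240 bases before the start in Nfe2l2, 134 bases before it in Gclm and 133 bases before it in Prdx1. A match is a description of letters and not evidence of binding.

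Different libraries are compared in CPM, which are counts scaled to library totals and corrected by TMM factors, and levels of different genes as FPKM, which also divides by transcript length. The cell label was checked against marker genes. Of 15 RGC markers, Pou4f2, Pou4f3 and Rbfox3 had 0 counts in all 9 libraries, which allows at most 0.165 CPM in the shallowest library, by counting error only. Thy1 had at most 0.0493 CPM, and Sncg, another defining gene, 0.155 to 0.303 CPM. Rbpms lay between 45.5 and 61.6 CPM, and Isl1 between 11.1 and 21.6 CPM. Nefl, a neurofilament chain, stepped down over the 3 groups, at 63.6 ± 5.38, 38.4 ± 2.68 and 17.3 ± 1.08 CPM (SD, n = 3). Tubb3, a neuronal tubulin, went from 4.46 ± 0.0463 to 2.59 ± 0.471 CPM and then up to 21.2 ± 1.03 CPM, a log2 fold change of 3.03 with the medium (edgeR adjusted p = 3.07e-17). Of the 6 RGC markers tested, 4 were lower in aging RGCs (Rbpms, Isl1, Nefl and Tubb3), and with the medium Tubb3 was higher and Nefl and Map2 lower. Of all genes tested, 23.0% were lower in aging RGCs, and 27.1% were higher and 26.0% lower with the medium. The epithelial keratin Krt8 reached 391 to 738 CPM and the collagen gene Col3a1 233 to 486 CPM, and Krt18 and Krt19 lay between 243 and 377 CPM. Other epithelial markers were low, with 0 counts for Krt5, at most 0.217 CPM for Cdh1, Cldn4 and Krt14, and at most 2.76 CPM for Epcam. The mesenchymal Col1a2, Dcn, Lum and Acta2 had at most 0.757 CPM, Pdgfrb at most 5.48 CPM and Col1a1 at most 17.1 CPM. The label thus rests on few of its own markers, and few markers of these other lists were high either. In aging RGCs Krt8 was higher at 0.45 on the log2 scale and Epcam was not called. Krt18 (-0.35), Krt19 (-0.41), Col1a1 (-0.88), Pdgfrb (-0.78) and Col3a1 (-0.2) were lower there. With the medium against aging RGCs, Krt8 (0.35) and Krt18 (0.16) were higher and Col3a1 (-0.73) and Pdgfrb (-1.31) lower. Krt19, Epcam and Col1a1 were not called in that comparison. The part of these shifts in the members' values was not tested. In bulk RNA, fewer cells of a type and less RNA per cell cannot be told apart.

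Some libraries also stood apart in macrophage genes. Lyz2, a lysozyme of macrophages, was at 22.6, 10.2 and 13.1 CPM in normal RGCs, at 6.38, 1.18 and 1.92 CPM in aging RGCs, and at 2.31, 0.992 and 12.3 CPM with the medium. Adgre1, a defining macrophage gene, followed the same order at 2.47, 0.921 and 2.12 CPM, then 0.108, 0 and 0.0506 CPM, then 0.103, 0.0992 and 1.64 CPM. For these genes medium replicate 3 and the normal libraries were the high ones, and C1qb had 0 counts in the 5 others. All 14 macrophage markers had a count in at least 1 library, their most abundant gene was Cd68, and their sum was 78.2 to 90.6 CPM in normal RGCs, 70, 65.9 and 65.6 CPM in the aging replicates, and 51.2, 47.7 and 76.4 CPM in the medium replicates in order. Not all of them followed Lyz2. Of 11 tested, 7 were lower in aging RGCs, where 23.0% of all genes tested were lower. In contrast, Mrc1 was higher at 0.49 (4.89 ± 1.15 against 6.83 ± 0.874 CPM, edgeR adjusted p = 0.0184), Cd68 was at 38.6 ± 3.67 against 41.5 ± 1.5 CPM and Cd14 at 12.6 ± 0.743 against 12.7 ± 0.478 CPM. With the medium against aging RGCs, Adgre1, C1qb and Cd14 were higher and Cd68 and Mrc1 lower.

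Most of the genes were abundant. In normal RGCs the ferritin light chain gene Ftl1 had 1248 ± 77.3 FPKM (SD, n = 3) and the ferritin heavy chain gene Fth1 900.1 ± 41.6 FPKM, ahead of the peroxiredoxin gene Prdx1 at 571 ± 21.2 FPKM and the cytosolic superoxide dismutase gene Sod1 at 281 ± 6.49 FPKM. The order of the first pair turned with the medium, where Fth1 had 1157 ± 16.9 FPKM and Ftl1 876 ± 38.9 FPKM. Among the other abundant genes, Gstp1 at 227 ± 1.71 FPKM stood above Txn1 at 205 ± 2.77 FPKM and Gpx1 at 204 ± 6.33 FPKM, and these last 2 differed by less than their SD. At the low end were Slc40a1 at 0.713 ± 0.133 FPKM, Sod3 at 0.447 ± 0.0551 FPKM and Gpx3 at 0.1 ± 0.0529 FPKM. Gpx7, a glutathione peroxidase of the endoplasmic reticulum, had 0 to 2 counts in every library and was the 1 gene of the 39 that did not pass the low-count filter, which asks for 0.498 CPM in 3 libraries. Gpx3 reached that level in 0 of 3 normal libraries and in all aging and medium ones, and Slc40a1 in 1 of 3 medium libraries and all others, so each was tested only because of the groups where it is high. The other 36 reached it in all 9 libraries.

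**Figure D1:**
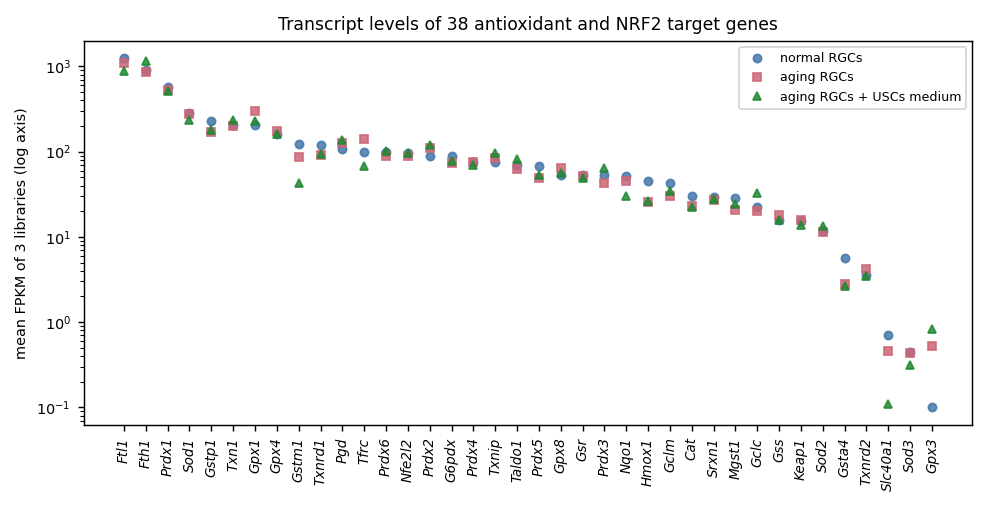
Mean FPKM of 3 libraries on a log axis for 38 of the genes (Gpx7, near 0, is left out), ordered by their level in normal RGCs, with a circle for normal RGCs, a square for aging RGCs and a triangle for those with USCs medium. Levels span from 1248 FPKM for Ftl1 to 0.1 FPKM for Gpx3 in normal RGCs, and the groups separate most for Gstm1, Tfrc, Gsta4, Slc40a1 and Gpx3.

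Aging RGCs were compared with normal RGCs to see how D-galactose treatment moved the antioxidant genes. Of the 38 genes tested, 10 were higher in aging RGCs and 16 lower at an adjusted p under 0.05 in the quasi-likelihood test of edgeR, with p-values adjusted by the Benjamini-Hochberg method, beside 23.6% of all 12145 genes tested called higher and 23.0% called lower. As shares of the members these are 26.3% and 42.1%. The median log2 fold change of the members was -0.06, against 0.002 for all genes tested. With a log2 fold change of at least 1 in size as a further condition, Gpx3 alone was called, where 2.65% of all genes tested passed, and it is a gene that its own high groups brought into the test. With a filter of 1 CPM in 3 libraries Gpx3 was not tested, 9 of 37 members were higher and 16 lower, and no member reached a log2 fold change of 1 in size. The median size of a log2 fold change was 0.23 among members and 0.18 among all genes, so most of the differences were small.

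The medium was compared with aging RGCs to ask what it changed in cells already given D-galactose. Here 16 members were higher and 7 lower with the medium (42.1% and 18.4%), beside 27.1% of all genes called higher and 26.0% called lower, and the median log2 fold change was 0.09 against -0.007 for all genes. The fold-change condition left Slc40a1 alone, where 5.44% of all genes passed, and among the 36 members at the filter's level in all libraries 16 were higher and 6 lower, none by that fold change. Members are more abundant than most genes, with a median average log2 CPM of 6.45 against 4.91, and small differences pass the test more readily in abundant genes. Among the 5872 genes whose average log2 CPM was 5 or more, 31.8% were higher and 27.3% lower in aging RGCs, and 38.8% higher and 25.4% lower with the medium. The 32 members above that level had 8 higher and 14 lower in aging RGCs, then 15 higher and 6 lower with the medium. Without TMM factors the members lower with the medium were 11 and those higher 13, beside 34.6% of all genes tested called lower and 19.3% called higher in that fit. The share of all calls that were higher fell from 51.1% to 35.8%.

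Both comparisons use the same aging libraries, so a value that is low there by chance is pushed up in the other, and the genes are given side by side with no test of the pairing. Lower in aging RGCs and higher with the medium were Gclc, Gclm, Txnrd1, Prdx3, Prdx6, Gstp1, Mgst1, G6pdx and Taldo1. Nqo1, Gstm1 and Ftl1 were lower in both comparisons, and Txnip, Prdx2 and Pgd were higher in both. Gpx1 and Tfrc were higher in aging RGCs and lower with the medium. Keap1, Gsr, Srxn1, Sod3, Prdx1 and Prdx4 were called in neither.

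**Figure D2:**
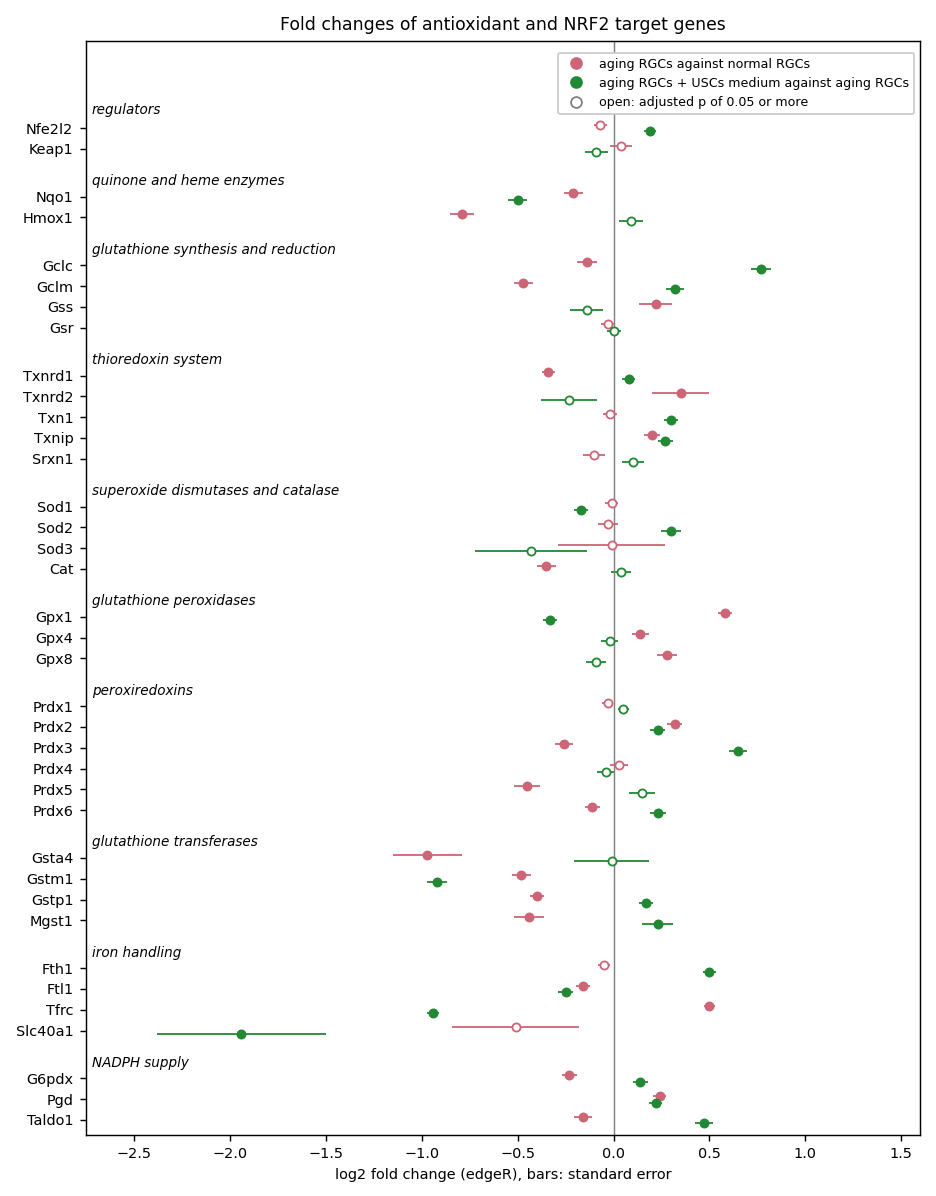
Log2 fold change (points) and its standard error (bars) from edgeR for 37 genes grouped by role, in red for aging RGCs against normal RGCs and in green for the USCs medium against aging RGCs, with open points for an adjusted p of 0.05 or more. Gpx3, at 2.37 and 0.75, is not drawn, and Gpx7 was not tested. The glutathione transferases all lie left of 0 in red, and Gclc, Prdx3 and Fth1 lie farthest right in green.

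The regulators moved little. Nfe2l2, on chromosome 2 from 75675513 to 75704641 on the minus strand of GRCm38, was at 226, 228 and 236 CPM in normal RGCs, at 215, 219 and 222 CPM in aging RGCs, and at 250.4, 245 and 253 CPM with the medium. The aging values lay just under the normal ones, and the medium values above both. Its log2 fold change was -0.07 in aging RGCs (standard error 0.0336, edgeR adjusted p = 0.0784) and 0.19 with the medium (standard error 0.0336, edgeR adjusted p = 2.60e-05). The first of these passes without TMM factors, at an adjusted p of 0.0207. Against normal RGCs the medium value was 0.12 (edgeR adjusted p = 0.00347), but it was 0.02 without TMM factors and in both FPKM fits (adjusted p = 0.656 to 0.681). Keap1, on chromosome 9 from 21229730 to 21239361, was at 49.4, 44.9 and 50.3 CPM, then 48.3, 51.6 and 48.8 CPM, then 43.2, 46.4 and 49.5 CPM, and its groups overlapped. It passed in neither comparison (edgeR adjusted p = 0.614 and 0.183), though without TMM factors its log2 fold change with the medium of -0.17 had an adjusted p of 0.0165. A gene on the other strand overlaps its exons.

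Both classical NRF2 targets that act on quinones and heme were lower in aging RGCs, as were 23.0% of all genes tested. Nqo1, the NADPH-dependent quinone reductase, on chromosome 8 from 107388225 to 107403206, had 76.1, 79.7 and 81.5 CPM in normal RGCs, 66.1, 66.7 and 72.9 CPM in aging RGCs, and 47.4, 49.3 and 48.7 CPM with the medium. It stepped down from group to group without overlap, with log2 fold changes of -0.21 (standard error 0.0486, adjusted p = 0.000949) and -0.50 (standard error 0.0513, edgeR adjusted p = 3.12e-09). Hmox1, heme oxygenase 1, which splits heme and releases iron, lies on chromosome 8 from 75093621 to 75100589. Its values were 66.1, 72.7 and 70.2 CPM in normal RGCs, 42.5, 36.7 and 41.4 CPM in aging RGCs, and 44.3, 44.5 and 39.1 CPM with the medium. All normal libraries stood above the others, and the aging and medium libraries overlapped. The log2 fold change was -0.79 in aging RGCs (standard error 0.0605, adjusted p = 1.38e-11) and 0.09 with the medium (standard error 0.0637, edgeR adjusted p = 0.263). Macrophages express Hmox1 strongly, and Lyz2 and Adgre1 were also highest in normal RGCs. Medium replicate 3, where both macrophage genes were high, had the lowest Hmox1 of its group, and the part of macrophages in the difference was not tested.

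Glutathione synthesis showed its clearest difference at Gclc, the catalytic subunit of glutamate-cysteine ligase, which sets the rate of the pathway. Gclc, on chromosome 9 from 77754535 to 77794485, was at 75.6, 68.0 and 80.6 CPM in normal RGCs, 64.6, 68.0 and 70.7 CPM in aging RGCs, and 116, 114 and 118 CPM with the medium. The medium libraries stood above all others, whereas the normal and aging ones overlapped. Its log2 fold change was 0.77 with the medium (standard error 0.0508, edgeR adjusted p = 4.39e-13) and 0.63 for the medium against normal RGCs. The small fall in aging RGCs, -0.14 (edgeR adjusted p = 0.0287), lost its call when normal replicate 1 or 3 or aging replicate 1 or 2 was left out, with adjusted p from 0.0565 to 0.202, and in both FPKM fits (adjusted p = 0.057 and 0.058).

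Gclm, the modifier subunit of the same ligase, had 79.0, 80.9 and 74.9 CPM in normal RGCs, 58.0, 53.7 and 58.4 CPM in aging RGCs, and 71.1, 70.6 and 70.3 CPM with the medium. Its log2 fold changes were -0.47 and then 0.32, with edgeR adjusted p of 5.85e-09 and 3.35e-06, and the medium libraries lay between the other groups. Alternative fits other than leaving out libraries gave 0.19 to 0.32 for the second value (adjusted p of at most 0.0293). For the medium against normal RGCs they gave -0.31 to -0.14. Gclm shares exonic sequence with a gene on each strand, so its level is less certain. Gss, which adds glycine in the last step, had a log2 fold change of 0.22 in aging RGCs (edgeR adjusted p = 0.0392) that did not pass in DESeq2 (adjusted p = 0.066) or without normal replicate 1 or aging replicate 1 or 2. Gsr, which reduces oxidized glutathione, had log2 fold changes of -0.03 and 0.00 and passed in neither.

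In the thioredoxin system, Txnrd1, the cytosolic thioredoxin reductase, was lower in aging RGCs at a log2 fold change of -0.34 (standard error 0.0334, edgeR adjusted p = 2.21e-09). With the medium it was higher by only 0.08 (adjusted p = 0.0349), a call lost without aging replicate 1 or 3 or any medium replicate (adjusted p = 0.0528 to 0.119) and lost without TMM factors (adjusted p = 0.885). Txn1, thioredoxin itself, differed only with the medium, at 0.30 (standard error 0.0357, edgeR adjusted p = 3.98e-08). Txnip, which binds thioredoxin and blocks it and is known to respond to glucose, was higher in each step, by 0.20 and 0.27, and 0.47 above normal RGCs with the medium (edgeR adjusted p = 4.24e-11). Txnrd2, the mitochondrial reductase, had 0.35 in aging RGCs with an adjusted p of 0.0482 that rose to 0.0768 in DESeq2 and to 0.061 to 0.235 when normal replicate 1 or 3 or any aging replicate was left out. Srxn1, which repairs overoxidized peroxiredoxins, passed in neither comparison with all libraries, but did at -0.16 without normal replicate 1 (adjusted p = 0.0289) and at 0.16 without medium replicate 1 (adjusted p = 0.041).

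The superoxide dismutases gave no call in aging RGCs, with log2 fold changes of -0.01 for Sod1, -0.03 for the mitochondrial Sod2 and -0.01 for the extracellular Sod3, and 0 of the 3 passed in edgeR, in DESeq2 or at an unadjusted p under 0.05, where 23.6% of all genes tested were called higher and 23.0% lower by edgeR. With the medium Sod2 was higher by 0.30 (standard error 0.0524, edgeR adjusted p = 1.96e-05), and Sod1 was lower, at -0.17 (standard error 0.0362, edgeR adjusted p = 0.000249). Cat, catalase, which splits hydrogen peroxide in peroxisomes, fell in aging RGCs from 76.5 ± 3.65 to 60.1 ± 2.56 CPM (SD, n = 3), a log2 fold change of -0.35 (edgeR adjusted p = 1.91e-06). With the medium it was at 61.6 ± 2.54 CPM, a log2 fold change of 0.04 that did not pass (edgeR adjusted p = 0.59).

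Gpx1, Gpx4, Gpx8 and Gpx3 were higher in aging RGCs, the last from near the limit of detection, where 23.6% of all genes tested were higher, and 0 of 4 were called higher with the medium against aging RGCs by edgeR or DESeq2, where only Gpx3 had an unadjusted p under 0.05 in that direction and 27.1% of all genes were called higher by edgeR. Gpx1, the cytosolic selenoenzyme that reduces hydrogen peroxide with glutathione, lies on chromosome 9 from 108338903 to 108340343. It was at 177, 174 and 190.1 CPM in normal RGCs, at 271, 266 and 273 CPM in aging RGCs, and at 219, 215 and 209 CPM with the medium. The groups did not overlap, and the medium libraries lay between the others. The log2 fold change was 0.58 in aging RGCs (standard error 0.0365, adjusted p = 2.08e-13) and -0.33 with the medium (standard error 0.0363, edgeR adjusted p = 1.17e-08). Gpx8 of the endoplasmic reticulum rose by 0.28 (edgeR adjusted p = 4.32e-05). Gpx4, which reduces lipid peroxides and guards against ferroptosis, rose by 0.14 (edgeR adjusted p = 0.0136), a call lost without normal replicate 3 or aging replicate 1 or 3 (adjusted p = 0.0528 to 0.105) and in both FPKM fits (adjusted p = 0.117 and 0.118).

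Gpx3, the secreted peroxidase, on chromosome 11 from 54902453 to 54910377, was near the limit of detection. Its counts were 3, 5 and 2 in normal RGCs, 16, 14 and 18 in aging RGCs, and 17, 38 and 28 with the medium, or 0.13, 0.242 and 0.0987 CPM, then 0.865, 0.721 and 0.911 CPM, then 0.873, 1.89 and 1.43 CPM. Normal libraries were lowest, and the aging and medium libraries overlapped. The log2 fold change of 2.37 in aging RGCs (standard error 0.528, edgeR adjusted p = 0.00051) was 0.48 on the log2(FPKM + 1) scale. As the gene passed the low-count filter only through the groups where it is high, its call is a description. With the medium the value of 0.75 did not pass (edgeR adjusted p = 0.0852), and it passed at 0.99 without medium replicate 1 (adjusted p = 0.0373).

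The peroxiredoxins, which reduce peroxides and are for the most part recharged by thioredoxin, went different ways. Prdx3, the mitochondrial member, on chromosome 19 from 60864051 to 60874556, was at 75.5, 76.1 and 76.0 CPM in normal RGCs, at 62.7, 60.5 and 66.5 CPM in aging RGCs, and at 100.5, 102 and 95.3 CPM with the medium. Each group stood apart, with aging lowest and medium highest. Its log2 fold changes were -0.26 (standard error 0.0468, adjusted p = 3.45e-05) and 0.65 (standard error 0.0461, edgeR adjusted p = 2.03e-12). Prdx2, a cytosolic member on chromosome 8 from 84969587 to 84974834, had 127, 126 and 127 CPM in normal RGCs, 164, 151 and 160.5 CPM in aging RGCs, and 185, 194 and 181 CPM with the medium. It climbed in both comparisons, by 0.32 (standard error 0.0388, adjusted p = 9.36e-08) and 0.23 (standard error 0.0381, edgeR adjusted p = 7.26e-06), though the genes Junb and Rnaseh2a overlap it on the other strand and reads without strand could not be told apart. For the second Prdx2 value, alternative fits other than leaving out libraries gave 0.12 to 0.24 (adjusted p of at most 0.0269). Prdx5, in mitochondria and peroxisomes, fell in aging RGCs with a log2 fold change of -0.45 (edgeR adjusted p = 2.74e-06). Its 0.15 with the medium did not pass (adjusted p = 0.075), but passed with no low-count filter, with only the groups compared, and without aging replicate 3 or medium replicate 1 (adjusted p = 0.00364 to 0.0488). Prdx6, which is recharged by glutathione instead, had -0.11 and 0.23, and the first of these was lost without normal replicate 1 or 2 or aging replicate 2 or 3 (adjusted p = 0.0656 to 0.116). Prdx1 and Prdx4 were called in neither comparison.

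All 4 glutathione transferases among the members, which join glutathione to electrophiles, were lower in aging RGCs, as were 23.0% of all genes tested, and also lower with the medium against normal RGCs, as were 29.9% of all genes. The latter call of Mgst1 was lost without normal replicate 1 or medium replicate 1 (adjusted p = 0.116 to 0.158) and in both FPKM fits (adjusted p = 0.0514 and 0.0538). Gstm1, on chromosome 3 from 108012255 to 108017973, was at 157, 140.1 and 162 CPM in normal RGCs, at 110.2, 104 and 115 CPM in aging RGCs, and at 57.6, 57.7 and 57.9 CPM with the medium. No 2 groups overlapped. Its log2 fold changes were -0.48 (standard error 0.0473, adjusted p = 2.01e-09), -0.92 (standard error 0.0517, adjusted p = 1.34e-14) and, for the medium against normal RGCs, -1.41 (standard error 0.0504, edgeR adjusted p = 5.29e-19). Its close relative Gstm2, next to it on chromosome 3 from 107981702 to 107986453, moved less, at -0.09 (adjusted p = 0.0966) and -0.21 (edgeR adjusted p = 0.000383), and reads of such paralogs may have been shared between them.

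Gsta4, which clears the lipid peroxidation product 4-hydroxynonenal, on chromosome 9 from 78182774 to 78209349, had 5.89, 4.56 and 5.53 CPM in normal RGCs, 2.97, 2.47 and 2.73 CPM in aging RGCs, and 2.88, 2.53 and 2.71 CPM with the medium. The normal libraries were all higher, and the others overlapped. The log2 fold change was -0.97 in aging RGCs (standard error 0.178, edgeR adjusted p = 5.52e-05) and -0.01 with the medium (adjusted p = 0.971). Gstp1 had -0.40 and then 0.17, and the microsomal Mgst1 -0.44 and then 0.23, all 4 values passing (edgeR adjusted p of at most 0.0152). The second of the Mgst1 values was lost without medium replicate 2 (adjusted p = 0.0768) and without TMM factors (0.16, adjusted p = 0.104).

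**Figure D3:**
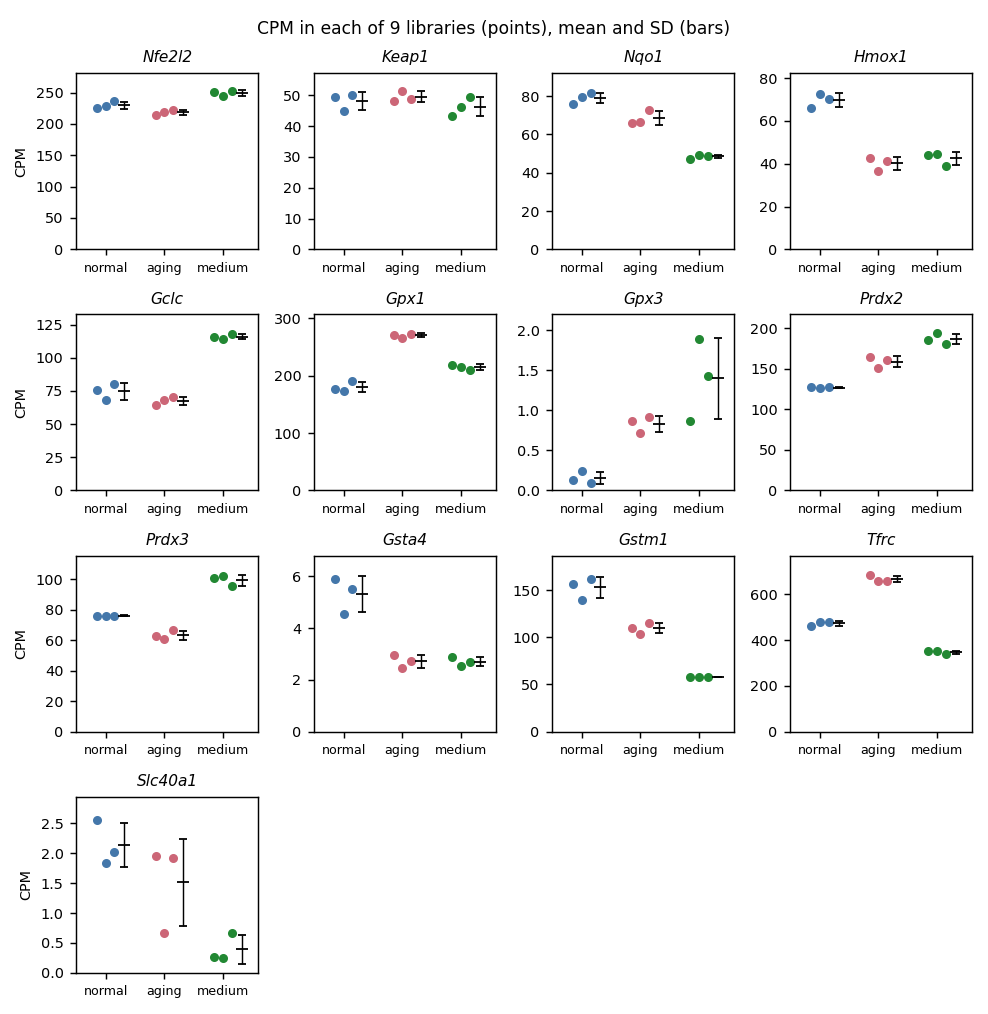
CPM of 13 of the genes given library by library, with normal RGCs in blue, aging RGCs in red and aging RGCs + USCs medium (medium) in green, each point a library and the black bars the mean and SD of 3. The groups stand apart without overlap for Nfe2l2, Nqo1, Gpx1, Prdx2, Prdx3, Gstm1 and Tfrc, and overlap throughout for Keap1.

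Of the 4 iron genes, Tfrc was higher and Ftl1 lower in aging RGCs, and with the medium against aging RGCs Fth1 was higher and the other 3 lower, where 27.1% of all genes tested were higher and 26.0% lower. Tfrc, the transferrin receptor that brings iron into the cell, on chromosome 16 from 32608920 to 32632794, was at 462, 479.6 and 478 CPM in normal RGCs, at 682, 659.7 and 660 CPM in aging RGCs, and at 352, 350.2 and 339 CPM with the medium. Aging libraries were highest and medium libraries lowest, with no overlap. The log2 fold change was 0.50 in aging RGCs (standard error 0.0307, adjusted p = 1.65e-13) and -0.94 with the medium (standard error 0.0312, edgeR adjusted p = 9.23e-20). Fth1, whose ferritin subunit oxidizes and stores iron, was at 767, 700.3 and 725 CPM in normal RGCs, at 716, 685 and 714 CPM in aging RGCs, and at 984, 1022 and 977 CPM with the medium. The medium libraries stood above the rest, at a log2 fold change of 0.50 against aging RGCs (standard error 0.033, edgeR adjusted p = 5.48e-13). Ftl1, the light chain, went the other way at -0.25 (standard error 0.0378, edgeR adjusted p = 3.19e-06), after -0.16 in aging RGCs. Genes on both strands overlap Ftl1, and ferritin genes have many processed copies, so its level is uncertain. Ferritin and transferrin receptor proteins are also controlled by translation and mRNA decay through iron regulatory proteins, which RNA levels show only in part.

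Slc40a1, ferroportin, the iron exporter, on chromosome 1 from 45908068 to 45926523, had counts of 59, 38 and 41 in normal RGCs, 36, 13 and 38 in aging RGCs, and 5, 5 and 13 with the medium. These are 2.56, 1.84 and 2.02 CPM, then 1.95, 0.67 and 1.92 CPM, then 0.257, 0.248 and 0.666 CPM. All medium libraries lay below the aging ones, narrowly where medium replicate 3 met aging replicate 2, and the normal and aging libraries overlapped. The log2 fold change was -1.94 with the medium (standard error 0.439, edgeR adjusted p = 0.000491) and -0.51 in aging RGCs (standard error 0.33, adjusted p = 0.219). On the log2(FPKM + 1) scale the medium value was -0.38. As the gene passed the low-count filter only through the groups where it is high, its calls are a description too. Macrophages are known for high ferroportin, and 12.3 CPM of Lyz2 in medium replicate 3 went with the highest Slc40a1 of that group. Without that library the value was -2.55 (edgeR adjusted p = 0.000274). The part of other cells in the Slc40a1 level was not tested.

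**Figure D4:**
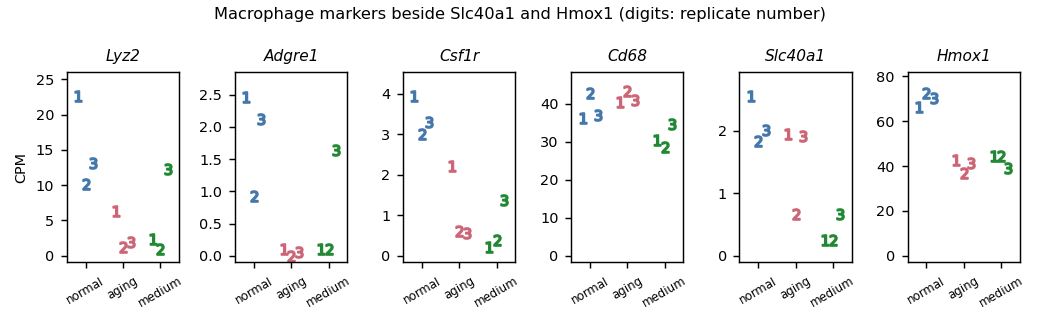
CPM in each library of the macrophage genes Lyz2, Adgre1, Csf1r and Cd68 beside Slc40a1 and Hmox1, with each library drawn as its replicate number in blue (normal RGCs), red (aging RGCs) or green (with USCs medium). Medium replicate 3 is the highest of its group for Lyz2 (12.3 CPM), Adgre1 (1.64 CPM) and Slc40a1 (0.666 CPM) and the lowest for Hmox1 (39.1 CPM).

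The genes of NADPH supply, which feeds glutathione and thioredoxin reduction through the pentose phosphate pathway, were all 3 higher with the medium, as were 27.1% of all genes tested and 38.8% of those with an average log2 CPM of 5 or more. G6pdx, the first enzyme, had a log2 fold change of -0.23 in aging RGCs (adjusted p = 2.19e-05) and 0.14 with the medium (edgeR adjusted p = 0.00342), and the second was lost without TMM factors (0.07, adjusted p = 0.165) and in both FPKM fits (adjusted p up to 0.238). Pgd, the next NADPH-forming enzyme, was higher in both, at 0.24 and 0.22 (edgeR adjusted p = 2.13e-06 and 6.64e-06). Taldo1, transaldolase, had -0.16 in aging RGCs, lost without normal replicate 3 (adjusted p = 0.055), and 0.47 with the medium (standard error 0.0469, edgeR adjusted p = 1.78e-09).

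Set against normal RGCs, cells with the medium had 15 members higher and 14 lower, beside 30.6% of all genes called higher and 29.9% called lower. Of the 32 abundant members 14 were higher and 11 lower, where 43.6% and 29.1% of all genes as abundant were, so the share higher was close to the background. Gpx3, Gstm1 and Slc40a1 passed a log2 fold change of 1 in size, as did 6.72% of all genes, with Slc40a1 at -2.45 and, without medium replicate 3, at -3.06. Among the 36 members at the filter's level in all libraries only Gstm1 did, and 14 were higher and 13 lower. Without TMM factors 11 members were higher and 19 lower, beside 21.4% of all genes tested called higher and 40.3% called lower in that fit. The share of all calls that were higher fell from 50.6% to 34.7%. This comparison shares the normal libraries with that of aging RGCs. Of the genes lower in aging RGCs, Gstm1 was lower here too at -1.41, Gsta4 at -0.98, Hmox1 and Nqo1 at -0.71, Ftl1 at -0.41, Cat at -0.31, Prdx5 at -0.30, Txnrd1 at -0.25, Gstp1 at -0.22, Mgst1 at -0.21 and Gclm at -0.15. Gclc was higher at 0.63, Prdx3 at 0.39, Taldo1 at 0.31 and Prdx6 at 0.13, each passing edgeR's test like those before, and G6pdx had -0.09 (edgeR adjusted p = 0.056). The Prdx6 call was lost without TMM factors, with upper-quartile factors and in both FPKM fits, at 0.02 to 0.09 (adjusted p = 0.0579 to 0.616).

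Further genes of the same systems were counted in lists that leave the 39 members out, and each count is to be read beside the shares of all genes tested, 23.6% higher and 23.0% lower in aging RGCs and 27.1% higher and 26.0% lower with the medium. Of 15 NRF2 regulators and partners tested, 2 were higher and 10 lower in aging RGCs (13.3% and 66.7%), and 4 higher and 5 lower with the medium (26.7% and 33.3%), the latter near those shares. Nfe2l1, a factor related to NRF2, fell from 449 ± 20.9 to 298 ± 3.28 CPM (SD, n = 3), a log2 fold change of -0.59 (edgeR adjusted p = 6.14e-14), and rose by 0.28 with the medium. Sqstm1, whose product p62 binds KEAP1 and which is itself an NRF2 target, had -0.47 and then -0.23 (edgeR adjusted p = 9.12e-11 and 1.34e-05). Bach2, a repressor that competes at these elements, was lower with the medium at -1.24, but at 2.36 ± 0.454 against 0.994 ± 0.304 CPM. Rbx1, a part of the ligase that ubiquitinates NRF2, rose by 0.36 in aging RGCs. Crebbp, a coactivator with acetyltransferase activity, had 0.30 and then -0.49.

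Of 28 further NRF2 targets tested, 5 were higher and 16 lower in aging RGCs (17.9% and 57.1%), with a median log2 fold change of -0.24, and 9 were higher and 6 lower with the medium (32.1% and 21.4%), with a median of 0.02. Slc7a11, the cystine importer that supplies glutathione synthesis, fell from 336 ± 24.5 to 97.4 ± 3.36 CPM (SD, n = 3) and was at 221 ± 2.84 CPM with the medium. Its log2 fold changes of -1.79 (standard error 0.0436, adjusted p = 2.35e-22) and 1.18 (standard error 0.0441, edgeR adjusted p = 1.77e-18) were larger than those of every member in the same comparison except Gpx3 in aging RGCs and Slc40a1 with the medium. Slc7a11 is also a target of the amino acid response factor ATF4. Pir and Blvrb, a biliverdin reductase, were lower in aging RGCs at -0.73 and -0.69. Aox1 and Ephx1, an epoxide hydrolase, were among the genes higher in aging RGCs, from 20.4 to 25.0 CPM and from 26.4 to 34.4 CPM. With the medium both were lower at -0.97 and -0.94, as was the transporter gene Abcc3 at -1.07. Gsta1 was higher in both, at 1.11 and 1.16, from 0.839 ± 0.243 CPM in normal RGCs.

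Of 21 further glutathione genes, 8 were higher and 4 lower in each of the 2 comparisons (38.1% and 19.0%). Chac1, which breaks glutathione down and is another ATF4 target, had -2.28 and then 1.17 (edgeR adjusted p = 4.07e-17 and 3.85e-10). Slc3a2, the partner chain of Slc7a11, had -0.92 and then 0.58. Gsto1 rose by 0.43 in aging RGCs, Hagh, a glyoxalase, was lower there at -0.64, and Mgst3 and Ggt7 were lower with the medium at -0.63 and -0.62. Of 16 thioredoxin and methionine sulfoxide repair genes, 6 were higher and 3 lower in aging RGCs (37.5% and 18.8%), then 5 higher and 3 lower with the medium (31.2% and 18.8%). The sestrin genes Sesn2 and Sesn3 were lower in aging RGCs at -0.80 and -0.43, and with the medium Sesn2 was higher at 0.28 and Sesn3 lower at -1.0. The third sestrin gene, Sesn1, was higher in aging RGCs at 0.27 and lower with the medium at -0.31. Msra, which reduces methionine sulfoxide, had 1.04 and then -0.70.

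Of 18 iron and heme genes, 3 were higher and 6 lower in aging RGCs (16.7% and 33.3%), and 10 higher and 3 lower with the medium (55.6% and 16.7%). Slc39a14, a metal importer of the ZIP family, had -0.39 and then 0.97 (edgeR adjusted p = 2.44e-08 and 6.19e-17), Cp, ceruloplasmin, 0.75 with the medium and Ncoa4, the receptor that sends ferritin to lysosomes, 0.42. Alas1, the first enzyme of heme synthesis, had 0.38 and then -0.50. Of 14 NADPH genes, 2 were higher and 7 lower in aging RGCs (14.3% and 50%) and 9 higher and 2 lower with the medium (64.3% and 14.3%). The mitochondrial folate enzymes led both, Aldh1l2 at -1.77 and 1.29 and Mthfd2 at -1.10 and 0.98, each with an edgeR adjusted p of at most 6.36e-16. The transketolase gene Tkt had 0.31 and then -0.36. Nnt is listed in 2 rows and was not counted.

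Of 10 oxidant-producing genes 0 were higher in aging RGCs by edgeR, by DESeq2 or at an unadjusted p under 0.05, and 4 were lower by edgeR (40%), while 3 were higher and 3 lower with the medium (30% each). Ptgs2, a cyclooxygenase, fell from 541 ± 39.1 to 199 ± 7.42 CPM and was at 155 ± 2.29 CPM with the medium. Cybb, the phagocyte oxidase chain, had -1.20 in aging RGCs (edgeR adjusted p = 0.00314). It was at 5.46, 2.62 and 4.29 CPM in normal RGCs, at 3.08, 0.824 and 1.52 CPM in aging RGCs, and at 2.05, 1.54 and 3.53 CPM with the medium, so that the groups overlapped and the highest library of each group was also its highest for Lyz2. The part of macrophages in it was not tested. Xdh, xanthine dehydrogenase, was higher with the medium at 0.90, and Nos2 lower at -0.54. Of 21 genes of other selenoproteins and their synthesis, 5 were higher and 7 lower in aging RGCs (23.8% and 33.3%), then 9 higher and 2 lower with the medium (42.9% and 9.52%). Selenoh had 0.69 and Selenoo -0.60 in aging RGCs. Selenow had 0.43 and then -0.64, and Selenop, the secreted selenium carrier, -0.74 and then -0.80. These counts are descriptions, and Esd, Me1, Msrb1 and Txnrd3 each stand in more than 1 list.

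**Figure D5:**
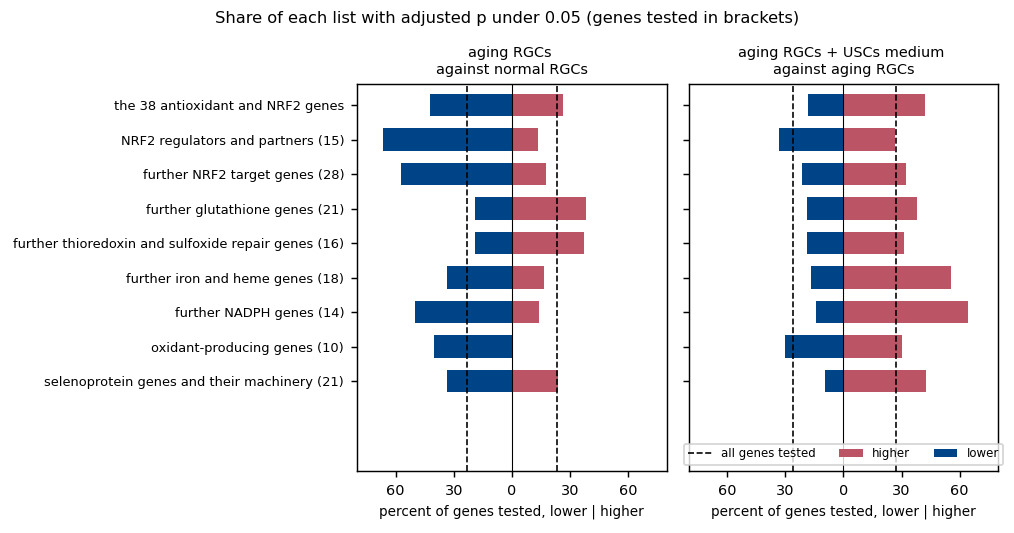
Percent of the genes tested in each list (number in brackets) that were higher (red, right) or lower (blue, left) at an adjusted p under 0.05, in aging RGCs against normal RGCs and in aging RGCs + USCs medium against aging RGCs, with dashed lines at the shares of all genes tested. NRF2 regulators and partners (10 of 15) and further NRF2 targets (16 of 28) extend farthest to the left in aging RGCs, and NADPH genes (9 of 14) and iron and heme genes (10 of 18) farthest to the right with the medium.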

How the data were processed

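RNA of 3 wells per group (normal RGCs, aging RGCs, and the latter with USCs medium) was analysed as the authors deposited it. Its values are an expected count per gene, which the authors' counting estimated from reads and which is not normalized, and an FPKM value, also deposited, that also divides by sequencing depth and gene length. Poly(A) RNA was taken with oligo(dT), and the labels name mm10. The aligner, the counting program and strand use were not given in the sources used here. Coordinates and exon overlaps came from GENCODE M21 on GRCm38, which matched 22267 of 22322 identifiers, and promoters from RefSeq.

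Expected counts, of which 6.92% to 7.38% per library carried decimals, were rounded. Tests used edgeR 4.0.16 in R 4.3.3 with filterByExpr, TMM factors (0.9562 to 1.034), 1 mean per group over all 9 libraries (6 residual degrees of freedom), the two-sided quasi-likelihood F test and Benjamini-Hochberg adjustment over 12145 genes. Standard errors are the size of the log2 fold change divided by the square root of F. The biological coefficient of variation was 3.8%. Data for aging against normal RGCs were also simulated over 12145 genes. In them 100 genes above 1 CPM were changed by 0.5 on the log2 scale and 100 by 1. Of the first 100, 81% were recovered, with 12 false calls. Far larger shares of genes were called in the real data, so the 81% need not hold there.

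The members, the lists of further genes, the markers and the thresholds were chosen with earlier results of these data known. Values are given by library for Nfe2l2, Keap1 and members called at a log2 fold change of 0.5 or more in size. Gclm and Fth1, just under that size (Fth1 before its value was rounded to 0.50), were added after their values were seen. From each list, at most 3 called genes per direction were named, by fold change, at an average log2 CPM of at least 1. Symbols in more than 1 row (Nnt) were left out. Marker lists covered RGCs, epithelial, mesenchymal and macrophage cells, glia (summed 95.7 to 130 CPM) and photoreceptors (summed 0.149 to 1.18 CPM). The glial sum was nearly all Glul (94.3 to 129 CPM), which was higher with the medium against aging RGCs at 0.41 (edgeR adjusted p = 1.61e-09). Alternatives were DESeq2 1.42.0, no TMM, upper-quartile and DESeq2 size factors, no low-count filter, 1 CPM in 3 libraries, the replicate number as a block, a fit to only the compared groups, limma 3.58.1 on log2(FPKM + 1) and log2(FPKM + 0.1), and each library left out.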

Additional observations from a re-analysis of the deposited data

How the results depend on the processing

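The fold-change condition moved the counts of called members most, from 26 to 1 in aging RGCs, from 23 to 1 with the medium against aging RGCs, and from 29 to 3 with the medium against normal RGCs. Of all genes tested, 2.65%, 5.44% and 6.72% passed it in these 3 comparisons. Without TMM factors, members lower with the medium against aging RGCs were 11 in place of 7, while 34.6% of all genes tested were lower in place of 26.0%. The median log2 fold change of all genes was then -0.020, -0.085 and -0.113 in the 3 comparisons. In the FPKM fits 2069 and 2084 of all genes were higher with the medium against aging RGCs, in place of 3292, and 2367 and 2377 against normal RGCs, in place of 3716. With each library left out, members called higher were 7 to 10 in aging RGCs and 14 to 18 with the medium against aging RGCs, and members lower 14 to 16 and 7 to 9. In the same fits 2484 to 2610 and 2994 to 3135 of all genes were higher, and 2437 to 2674 and 2756 to 2910 lower. The calls lost when 1 library was left out were those of Gclc, Gpx4, Gss, Prdx6, Taldo1 and Txnrd2 in aging RGCs, of Mgst1 and Txnrd1 with the medium, and of Gpx4, Mgst1 and Prdx6 with the medium against normal RGCs. Calls gained were those of Fth1 and Srxn1 in aging RGCs and of Gpx3, Gss, Prdx5, Srxn1 and Txnrd2 with the medium against aging RGCs. With the medium against aging RGCs, Cat turned to -0.04, Prdx1 to -0.03 and -0.04, and Gsr to -0.08, in the fit without TMM factors and in both FPKM fits. Gsr was also at -0.03 with upper-quartile factors, -0.002 with the filter of 1 CPM in 3 libraries and -0.0007 with only the groups compared, none of which passed. Leaving out 1 library turned signs of values that were never called, from -0.01 to 0.07 for Keap1, -0.05 to 0.001 for Txn1, -0.03 to 0.02 for Sod1, -0.10 to 0.01 for Sod2 and -0.09 to 0.09 for Sod3 in aging RGCs. With the medium the ranges were -0.07 to 0.06 for Gsta4, -0.07 to 0.02 for Gpx4 and -0.01 to 0.01 for Gsr. Without TMM factors and in both FPKM fits Nfe2l2 lost its call with the medium against normal RGCs (0.02), as did Gpx8 (adjusted p = 0.106 to 0.144), while with the medium against aging RGCs Gpx8, Keap1 and Prdx4 gained a call as lower, and Gss without TMM factors. Sod2 lost its call against normal RGCs in both FPKM fits (adjusted p = 0.054 and 0.0568). Prdx6 and Gpx4 lost theirs against normal RGCs without TMM factors, with upper-quartile factors and in both FPKM fits. Gpx4 was then at 0.02 to 0.08 (adjusted p = 0.119 to 0.831). A fit with the replicate block gave 10 members higher and 16 lower in aging RGCs, 16 and 7 with the medium, and 15 and 14 against normal RGCs, as without it. Of all genes tested, that fit called 23.5% higher and 22.9% lower, then 27.1% and 25.9%, then 30.5% and 29.8%. Deviations of same-numbered libraries of different groups from their group means correlated at -0.04 to 0.05. Differently numbered libraries were not set beside them, so whether same-numbered wells were prepared together was not tested. The cause of these changes was not tested. With a filter of 1 CPM in 3 libraries Gpx3 was not tested. Depth limits Gpx3, Slc40a1 and Sod3, which rest on few counts.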
